A study of Mus musculus with 12 samples.

Results

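This report describes what prior loading with oxidized low-density lipoprotein (oxLDL) did to the transcriptome of macrophages that were also given lipopolysaccharide (LPS). It compares the 3 poly(A) RNA libraries of oxLDL+LPS peritoneal macrophages (PMφs) with the 3 libraries of LPS PMφs, 6 of the 12 libraries in the series, paired by replicate number. Genes were kept where the normalized count was at least 10 in at least 3 of these 6 libraries, which left 12769 of 43253 genes. All cells came from wild-type C57BL/6J mice aged 8 to 12 wk. Macrophages were drawn from the peritoneum 4 days after 1 ml of 4% thioglycolate. The study's general method combines cells of male and female mice and then divides them among the treatments, and the sex-linked genes below differ from that description for some of these libraries. Both groups received LPS at 10 ng/ml, and the length of that exposure is not given for these libraries. The oxLDL+LPS group alone had first been cultured for 24 h with human oxLDL at 100 µg/ml. The remaining 6 libraries, control and oxLDL without LPS, serve below as the level before LPS and for 1 test of whether the oxLDL effect depended on LPS. The labels name no separate animals behind the replicates. The p-values rest on how much the change within a pair of libraries varied between the pairs, and not on a spread between animals. With so few pairs, part of each gene's error estimate was drawn from other genes of similar level.

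LPS, a wall component of Gram-negative bacteria, is sensed by TLR4 with CD14 and MD-2, and turns on NF-κB, AP-1 and interferon regulatory factors, which switch on cytokine, chemokine and interferon-response genes. Macrophages take up oxLDL through scavenger receptors such as CD36 and become foam cells. Cholesterol that leaves the lysosome holds SREBP2, the activator of cholesterol synthesis genes, in the endoplasmic reticulum, whereas oxidized lipids can modify KEAP1 and so release NRF2, the activator of antioxidant genes.

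Normalized counts summed to 22590678 to 26384551 in the LPS libraries and to 22071853 to 23346854 in the oxLDL+LPS libraries. Of the spread of the 500 most variable genes, 71.6% lay between replicate numbers and 17.1% between the 2 groups, so values are given below for each pair. Replicate 2 stood apart. Ddx3y, a Y-linked gene, read 459, 2 and 733 in LPS replicates 1, 2 and 3 and 439, 0 and 775 in oxLDL+LPS, so the cells behind replicate 2 held few or no male ones. Xist, expressed in female cells, read 1 and 2 in the replicate 1 libraries without LPS and 6331 and 3812 in those with LPS, so a number does not mark the same cells across LPS states. Ratios of oxLDL+LPS to LPS were also the least spread in that pair, with an SD over 9116 well-expressed genes of 0.19 (log2) against 0.37 in pair 1 and 0.38 in pair 3. Sex and the size of the response cannot be told apart with 1 such pair. Summed macrophage markers were 244943 to 324821 in LPS and 242027 to 282873 in oxLDL+LPS. Mesothelial and fibroblast markers summed to 6340 to 32116 and 5477 to 18654, and of 12 tested only Upk3b was lower. The 9 T and NK cell markers never summed to more than 15. Markers of large peritoneal macrophages summed to 26272 to 59068 in LPS and 16688 to 35209 in oxLDL+LPS, with 4 of 9 lower and none higher. Their part in the results below was not tested. In these bulk samples, fewer cells of a type and less RNA per cell cannot be told apart.

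With pairs as a block, 1680 of 12769 genes (13.2%) differed between oxLDL+LPS and LPS PMφs at an adjusted p under 0.1 in limma, and are called changed. Of these, 563 (4.41% of genes tested) were higher and 1117 (8.75%) were lower with oxLDL. The change was at least 2-fold for 62 higher and 122 lower genes, and 1635 of the 1680 moved the same way in all 3 pairs. Groups did not overlap at all for 789 genes higher (6.18%) and 814 lower (6.37%), called or not. The calls rest on the pairing. Without the replicate block no gene was called (890 genes had an unadjusted p under 0.05, against 3022 with it). None was called without replicate 1 or without replicate 3 either, where 2 pairs remain (1597 and 1531 genes at an unadjusted p under 0.05). Without replicate 2, also with 2 pairs, 2749 were called. That fit drew more of each gene's error from other genes (27.8 prior degrees of freedom, against 7.31 with 3 pairs). Its larger count, here and for lists below, is therefore not a stronger result. Every gene of the 1680 kept its direction in all of these fits. Dropping the block cannot change a direction, and the other fits share 2 pairs with the main fit, so this adds little. Without replicates 1, 2 and 3 in turn, the median log2 fold change was -0.86, -1.18 and -0.92 for the cytokine list described below and -0.78, -1.31 and -0.74 for chemokines. It was -0.94, -1.13 and -0.76 for cholesterol genes and 0.81, 1.05 and 0.60 for NRF2 targets. The main lists are therefore given with their median in each pair as well as with their calls.

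**Figure D1:**
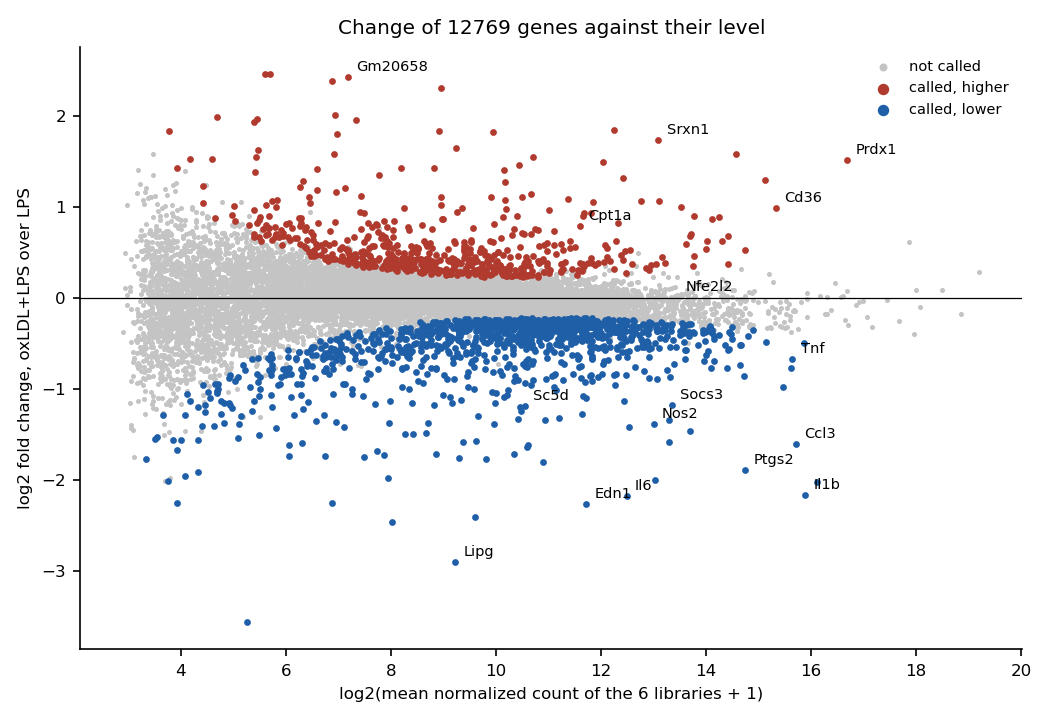
Log2 fold change of oxLDL+LPS over LPS (vertical axis) against log2 of the mean normalized count of the 6 libraries plus 1 (horizontal axis) for 12769 genes. Coloured points are the 563 genes called higher and the 1117 called lower. The genes with the deepest falls include highly expressed cytokine genes such as Il1b.

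Promoters are printed here for members of the 3 gene groups the results turn on: NRF2 targets, which rose, and NF-κB targets and SREBP2 targets, which fell. Each entry is the RefSeq sequence of 300 bases across the transcription start site (GRCm38.p6), written in the sense of the gene. Capitals mark a match, on either strand, to a short motif. For NRF2 and its MAF partners the motif was TGACNNNGC, which also contains the AP-1 motif TGANTCA in some of its forms. Prdx1 (chr4:116685349-116685648, + strand), G6pdx (chrX:74428831-74429130, - strand) and Srxn1 (chr2:152105274-152105573, + strand) each held 1 match.
Prdx1: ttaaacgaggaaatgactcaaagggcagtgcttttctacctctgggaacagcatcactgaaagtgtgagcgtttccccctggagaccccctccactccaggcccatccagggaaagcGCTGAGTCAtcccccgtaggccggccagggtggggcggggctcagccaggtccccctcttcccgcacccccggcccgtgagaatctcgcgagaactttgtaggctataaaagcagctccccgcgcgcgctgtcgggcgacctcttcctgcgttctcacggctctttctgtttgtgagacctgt
G6pdx: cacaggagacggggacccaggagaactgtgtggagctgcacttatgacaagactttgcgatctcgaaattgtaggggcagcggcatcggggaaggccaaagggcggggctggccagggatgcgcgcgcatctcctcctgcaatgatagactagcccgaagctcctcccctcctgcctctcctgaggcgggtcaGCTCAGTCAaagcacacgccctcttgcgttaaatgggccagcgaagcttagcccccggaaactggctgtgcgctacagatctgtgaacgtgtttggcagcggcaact
Srxn1: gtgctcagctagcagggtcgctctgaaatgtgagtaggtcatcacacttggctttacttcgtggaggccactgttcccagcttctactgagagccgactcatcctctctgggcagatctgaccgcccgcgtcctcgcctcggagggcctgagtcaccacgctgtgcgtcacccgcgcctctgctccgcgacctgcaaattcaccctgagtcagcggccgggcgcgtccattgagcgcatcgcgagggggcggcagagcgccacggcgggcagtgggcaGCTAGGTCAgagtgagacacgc
For NF-κB the motif was GGGNNTTTC. Rel (chr11:23770920-23771219, - strand) and Il6 (chr5:30012864-30013163, + strand) held 1 match each, and Cxcl2 (chr5:90903649-90903948, + strand) held 2.
Rel: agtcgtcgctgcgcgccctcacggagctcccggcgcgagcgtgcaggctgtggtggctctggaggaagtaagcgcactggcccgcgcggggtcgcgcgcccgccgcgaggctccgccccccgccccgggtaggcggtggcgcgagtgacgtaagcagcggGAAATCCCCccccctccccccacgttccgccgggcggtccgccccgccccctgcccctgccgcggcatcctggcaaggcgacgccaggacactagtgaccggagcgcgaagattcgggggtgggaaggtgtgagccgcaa
Il6: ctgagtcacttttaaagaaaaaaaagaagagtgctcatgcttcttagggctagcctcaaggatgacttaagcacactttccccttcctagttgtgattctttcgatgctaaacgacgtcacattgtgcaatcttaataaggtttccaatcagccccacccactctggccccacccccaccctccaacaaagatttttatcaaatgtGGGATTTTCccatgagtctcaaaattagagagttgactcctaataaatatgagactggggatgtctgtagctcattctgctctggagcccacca
Cxcl2: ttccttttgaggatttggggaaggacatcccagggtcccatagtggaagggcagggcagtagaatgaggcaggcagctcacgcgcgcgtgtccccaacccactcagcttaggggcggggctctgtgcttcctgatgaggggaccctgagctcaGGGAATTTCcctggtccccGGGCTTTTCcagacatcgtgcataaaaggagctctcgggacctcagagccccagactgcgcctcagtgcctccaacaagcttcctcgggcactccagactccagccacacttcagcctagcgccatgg
For SREBP the motif was TCACNCCAC, found once in Hmgcs1 (chr13:119690101-119690400, + strand).
Hmgcs1: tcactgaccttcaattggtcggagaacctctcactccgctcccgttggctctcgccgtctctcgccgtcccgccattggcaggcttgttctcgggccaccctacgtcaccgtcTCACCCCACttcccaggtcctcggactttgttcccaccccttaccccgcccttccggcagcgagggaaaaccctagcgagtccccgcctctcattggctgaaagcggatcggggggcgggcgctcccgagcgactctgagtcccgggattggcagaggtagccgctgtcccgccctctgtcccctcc

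Of 27025 promoters in the reference table, 14% held the NRF2 and MAF motif, as did 17.2% of those of the 9327 tested genes that matched the table. Among called NRF2 targets it was found in 8 of 20 promoters (40%), against 18.9% of genes called higher and 18.1% of genes called lower. The NF-κB motif was in 5.06% of all promoters, in 8.19% of those of genes called lower, in 4 of 12 called cytokine genes (33.3%) and in 4 of 11 called chemokine genes (36.4%). It was in 1 of 9 called effector and receptor genes (11.1%), and that gene was Marco, the 1 member of its list called higher. Among called feedback genes it was in 4 of 17 (23.5%). The AP-1 motif was in 8.97% of all promoters, in 4 of 12 called cytokine genes and in none of 9 called AP-1 and EGR factor genes. For the interferon-stimulated response element, GAAANNGAA, the shares were 9.76% of all promoters, 4.84% of genes called higher and 13.9% of genes called lower. The SREBP motif was in 1.44% of all promoters and in 1 of 15 called cholesterol genes (6.67%). These are counts of letters in a short window and not of bound sites.

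Most cytokine genes fell. Of 21 inflammatory cytokine genes tested, 18 were lower with oxLDL, none was higher, and the median log2 fold change was -1.06, against -0.01 over all genes tested. The median was -1.42 in pair 1, -0.62 in pair 2 and -1.26 in pair 3. With a robust fit of the variances 11 were called lower. Il1b (chr2:129364570-129371139, GRCm38), which encodes interleukin-1β, had normalized counts of 51068, 85645 and 152939 in LPS replicates 1, 2 and 3 and of 7630, 44508 and 21943 in oxLDL+LPS. All oxLDL+LPS libraries lay below all LPS libraries, a 4.48-fold fall (log2 -2.16, SE 0.31, adjusted p = 0.00793), although they stayed far above the 7 to 20 of the control libraries. Without replicate 2 the log2 fold change was -2.77.

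Il6 (chr5:30013114-30019981), another pyrogenic cytokine, read 2135, 9776 and 14906 in LPS and 261, 4786 and 2683 in oxLDL+LPS. Each pair fell, but the groups overlapped, because the LPS libraries themselves spanned a wide range (log2 -2.18, SE 0.28, adjusted p = 0.00619). Il1a, the sister gene of Il1b, fell by 2.02 on the log2 scale. The subunits of interleukins 12 and 23 moved together: Il12a fell by 1.32, the shared subunit Il12b fell by 1.99 and Il23a fell by 2.46. Lif, a cytokine of the interleukin-6 family, fell from 183, 553 and 596 to 51, 266 and 197 (log2 -1.49, SE 0.15, adjusted p = 0.00349). Tnf fell less, from 36687, 65418 and 85240 to 20752, 45676 and 53561 (log2 -0.67, SE 0.13, adjusted p = 0.0214). Il10, which restrains inflammation, was not called (log2 -0.77, SE 0.26, adjusted p = 0.106).

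**Figure D2:**
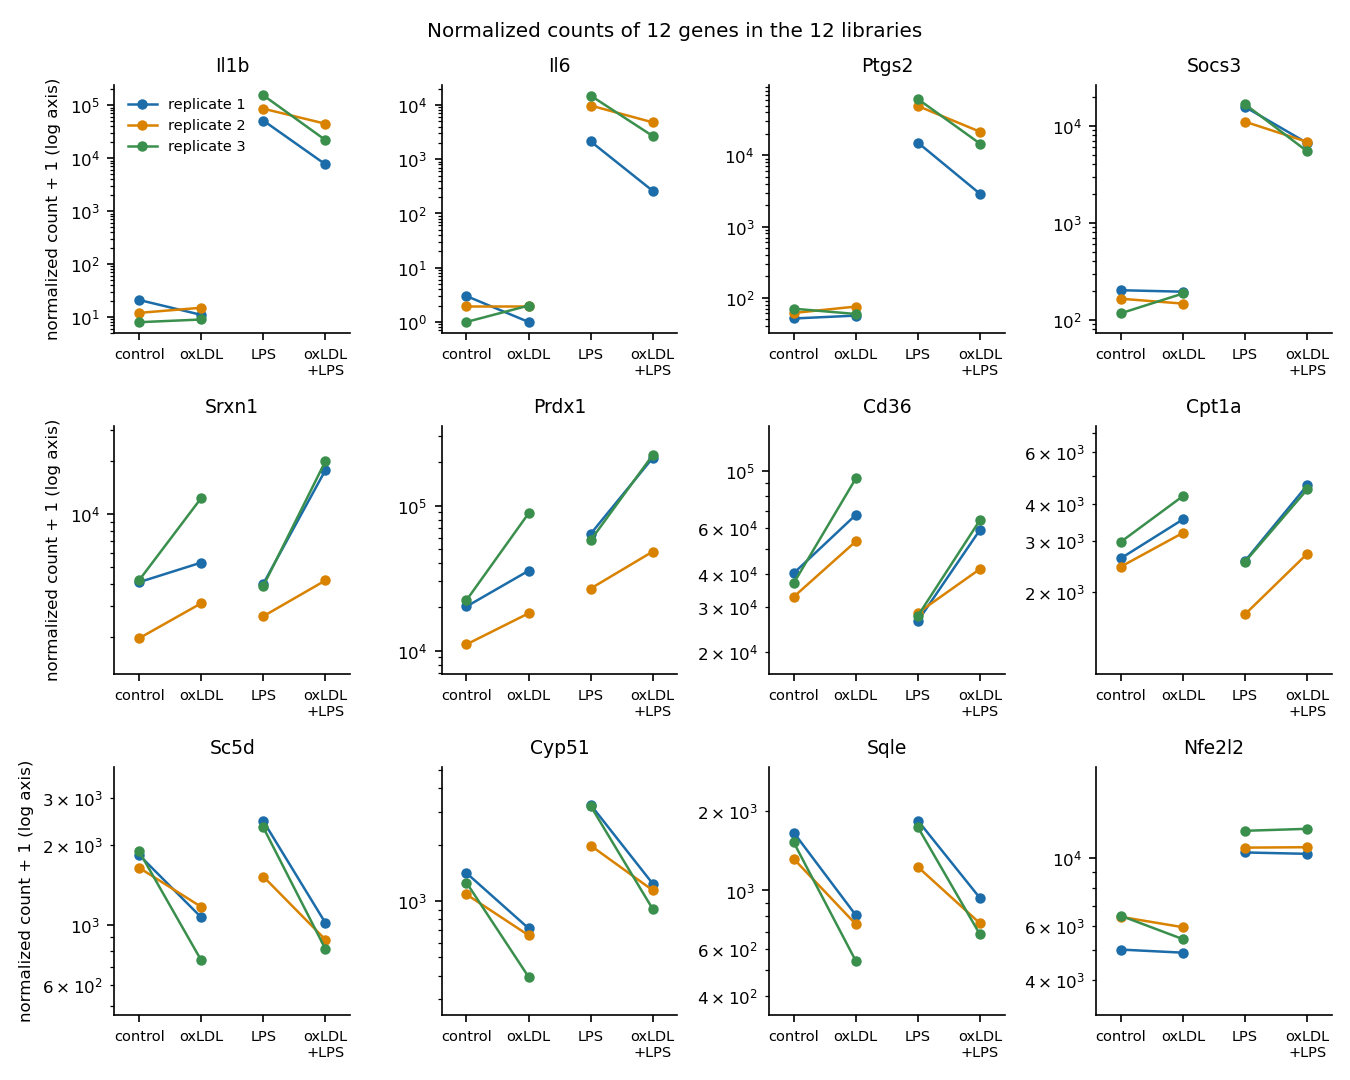
Normalized count plus 1 (log axis) of 12 genes in the 12 libraries, by group, with lines joining libraries of the same replicate number within an LPS state. Il1b fell from 51068 to 152939 in LPS to 7630 to 44508 in oxLDL+LPS, Srxn1 rose from 2612 to 3999 to 4175 to 19950, and pair 2 shows the smaller step in both.

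Chemokine ligands, which draw leukocytes to inflamed tissue, fell in the same way. Of 23 tested, 17 were lower and none higher, with a median of -0.98 and pair medians of -1.03, -0.32 and -1.36. With the robust fit 8 were called lower, and with quantile normalization 11. Ccl22, a ligand of CCR4, went from 509, 1220 and 2044 to 99, 686 and 124 (log2 -2.40, SE 0.44, adjusted p = 0.0153). Ccl3, a macrophage inflammatory protein, went from 34668, 93916 and 104907 to 7953, 51710 and 29510 (log2 -1.60, SE 0.21, adjusted p = 0.00649). In both genes every pair fell while the groups overlapped. Ccl4 and Cxcl10 fell with no overlap between groups, by 1.46 and 0.98 on the log2 scale. Cxcl2, a neutrophil attractant whose promoter is printed above, fell by 0.74, and here pair 2 had the deepest fall (log2 -0.93, against -0.77 and -0.52). Ccl5 was not called: its counts were 38551, 54765 and 65284 in LPS and 29969, 47169 and 50205 in oxLDL+LPS (log2 -0.32, SE 0.13, adjusted p = 0.169).

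A panel of inflammatory genes that the study followed by real-time PCR had 12 of 13 members lower (7 in the robust fit) and a median of -1.17. It overlaps the lists above and was chosen by the study, so it is not independent evidence of direction. Among the other effectors and receptors of inflammation, 13 of 25 were lower and 1 higher, with a median of -0.50, and 8 were lower with quantile normalization. Ptgs2 (chr1:150100031-150108227), the inducible cyclooxygenase, went from 15114, 49362 and 61849 to 2888, 21485 and 14644 (log2 -1.89, SE 0.19, adjusted p = 0.00349). Nos2, the inducible nitric oxide synthase, went from 10411, 10173 and 14245 to 2703, 7805 and 4004 with no overlap (log2 -1.39, SE 0.25, adjusted p = 0.0138). Ptges, which makes prostaglandin E from the product of Ptgs2, had counts of 5254, 5543 and 4953 in LPS and 5895, 4949 and 5103 in oxLDL+LPS and was not called (log2 0.02, SE 0.09).

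In the list of NF-κB subunits and feedback genes, 20 of 31 were lower, 11 were not called and none was higher, with a median of -0.37. With quantile normalization 12 were lower. Socs3, a suppressor of cytokine signalling, went from 15661, 11034 and 16698 to 6653, 6834 and 5467, with no overlap (log2 -1.18, SE 0.15, adjusted p = 0.00564). Tnfaip3, which encodes the ubiquitin-editing enzyme A20, fell by 0.77, and Nfkbia, which encodes the inhibitor IκBα, fell by 0.42. Among NF-κB subunits, Rel fell by 0.64 and Nfkb1 fell by 0.38, whereas Rela had a log2 fold change of -0.09 (SE 0.07, adjusted p = 0.492).

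Among LPS receptors, adaptors and kinases, 7 of 23 were called (30.4%), 6 lower and 1 higher, with a median of -0.10. The split depended on scaling, since with quantile normalization 2 were higher and none lower. Irf8, a transcription factor of macrophages, fell by 0.83 and Ikbke, an IκB kinase, fell by 0.45, both with no overlap, whereas Ikbkg, the regulatory subunit NEMO, rose by 0.60. Ikbkb, Map3k8 and the adaptor gene Ticam1 fell by 0.27, 0.24 and 0.26. Tlr4 itself read 968, 1424 and 1085 in LPS and 1087, 1322 and 1095 in oxLDL+LPS (log2 0.02, SE 0.08, adjusted p = 0.889). Cd14, its co-receptor, fell by 0.35 (SE 0.11, adjusted p = 0.0802), and Myd88, Tlr2 and Tbk1 were not called. Of the interferon-response genes 9 of 40 were lower and none higher, with a median of -0.25. The antiviral genes Isg15 and Rsad2 were not called (log2 -0.25, SE 0.12 and log2 -0.26, SE 0.24). Without replicate 2, 24 of the 40 were called lower, and 1 was with quantile normalization.

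AP-1 and EGR factors split, with 10 of 19 lower and 2 higher. Junb fell by 0.54 and Egr1 fell by 0.88, while Fos rose from 245, 94 and 105 to 454, 107 and 268 (log2 0.81, SE 0.19, adjusted p = 0.0389). Among genes of antigen presentation and costimulation, 9 of 16 were lower and none higher, with a median of -0.64. Their activator Ciita fell by 0.89, and the class II invariant chain gene Cd74 went from 9770, 8611 and 15553 to 5208, 6481 and 6088 with no overlap (log2 -0.89, SE 0.15, adjusted p = 0.0119). The costimulatory receptor gene Cd40 fell by 0.62 and Cd86 fell by 0.56, whereas Cd80 was not called (log2 -0.17, SE 0.12). Class II genes also mark small peritoneal macrophages, a list in which 3 of 5 genes tested were lower and 1, Ly6c2, was higher.

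**Figure D3:**
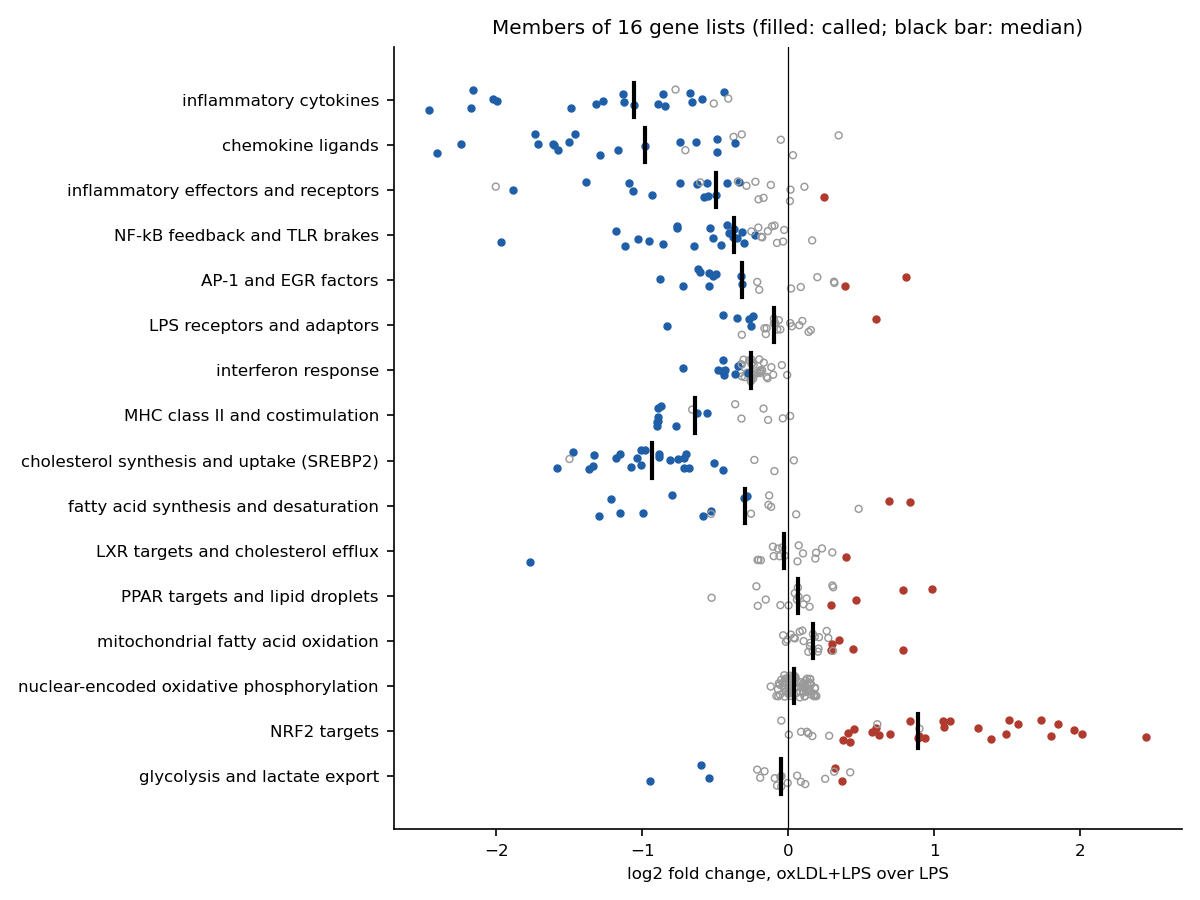
Log2 fold changes (oxLDL+LPS over LPS) of the members of 16 gene lists, with called genes filled and the median of each list as a black bar. Cytokine, chemokine and cholesterol genes sit below 0 and NRF2 targets above it, whereas the medians for LPS receptors and for oxidative phosphorylation lie near 0.

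Cholesterol synthesis and uptake genes fell with little overlap between groups. Of 26 tested, 22 were lower and none higher, and the median was -0.93. Groups did not overlap for 20 of them, all lower, against 6.37% of all genes in that direction. Without the pairing, 22 of the 26 had an unadjusted p under 0.05 and none passed the adjustment. Sc5d, the sterol C5 desaturase, went from 2448, 1519 and 2318 to 1020, 883 and 815, a 2.27-fold fall (log2 -1.18, SE 0.12, adjusted p = 0.00349). Cyp51, the lanosterol demethylase, went from 3274, 1981 and 3227 to 1240, 1143 and 908 (log2 -1.34, SE 0.16, adjusted p = 0.0049). Both were lower in every oxLDL+LPS library than in any LPS library.

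Idi1, the isopentenyl diphosphate isomerase, fell by 1.48, Hmgcs1 fell by 1.08 and Sqle, the squalene epoxidase, fell by 1.01. Fdps, the farnesyl diphosphate synthase, went from 2284, 1378 and 2241 to 898, 841 and 585 with no overlap (log2 -1.33, SE 0.18, adjusted p = 0.00652). The regulator Srebf2 itself fell by 0.68. Pair medians for the list were -0.95, -0.49 and -1.26, so pair 2 again gave the smallest value.

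Fatty acid synthesis genes followed in part, with 9 of 18 lower, 2 higher and a median of -0.30. Fasn, the fatty acid synthase, went from 1538, 829 and 1089 to 550, 520 and 327 (log2 -1.30, SE 0.17, adjusted p = 0.00619), and the desaturase genes Scd1 and Scd2 fell by 1.15 and 1.00. The 2 higher members were Acss2, an acetyl-CoA synthetase (log2 0.69), and Me1, the malic enzyme (log2 0.83), which is also an NRF2 target. A list of LXR targets, nuclear receptors and other genes of cholesterol handling showed no common direction. Of 18 tested, 8 had a log2 fold change above 0 and 10 below it. Only the nuclear receptor gene Rxra was called higher and only Ch25h lower. That is 11.1% called, near the 13.2% of all genes. Abca1, the cholesterol exporter, read 7418, 6420 and 4586 in LPS and 6418, 5190 and 4231 in oxLDL+LPS and was not called (log2 -0.21, SE 0.08, adjusted p = 0.139), nor was Abcg1 (log2 -0.07, SE 0.08). Ch25h, which makes 25-hydroxycholesterol, went from 1190, 1417 and 1253 to 226, 1043 and 224 with no overlap (log2 -1.77, SE 0.32, adjusted p = 0.0145).

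Most NRF2 targets rose. Of 35 tested, 26 were higher and none lower, with a median of 0.89 and pair medians of 1.00, 0.35 and 1.16. With the robust fit 18 were called higher. Srxn1 (chr2:152105516-152111376), the sulfiredoxin that repairs peroxiredoxins, went from 3999, 2612 and 3888 to 17753, 4175 and 19950, a 3.31-fold rise with no overlap (log2 1.73, SE 0.26, adjusted p = 0.00871). Prdx1, a peroxiredoxin, went from 63702, 26801 and 57575 to 212151, 48141 and 222173 (log2 1.51, SE 0.22, adjusted p = 0.00816). In this gene every pair rose, but replicate 2 of oxLDL+LPS stayed below 2 of the LPS libraries. Of the 35, 8 rose with groups that did not overlap, against 6.18% of all genes.

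Gclm, a subunit of the enzyme that starts glutathione synthesis, rose from 2342, 1220 and 1693 to 10850, 1859 and 11179 (log2 1.85, SE 0.30, adjusted p = 0.0114). Hmox1, the haem oxygenase, rose by 1.58 on the log2 scale, and Nqo1, the quinone reductase, rose by 2.01 from low counts of 21 to 47. Sqstm1, the autophagy receptor that also binds KEAP1, went from 15348, 25674 and 19580 to 45886, 34380 and 72557 with no overlap (log2 1.30, SE 0.23, adjusted p = 0.0153). Genes of the pentose phosphate pathway, which supplies NADPH, were among them: Taldo1 rose by 1.06 and G6pdx by 0.58, both without overlap. Slc7a11, the cystine transporter, was called (log2 0.70, SE 0.18, adjusted p = 0.0551), yet pair 2 was flat at -0.01. The mRNA of NRF2 itself, Nfe2l2, read 10443, 10831 and 12297 in LPS and 10335, 10865 and 12481 in oxLDL+LPS (log2 0.00, SE 0.08, adjusted p = 0.986).

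**Figure D4:**
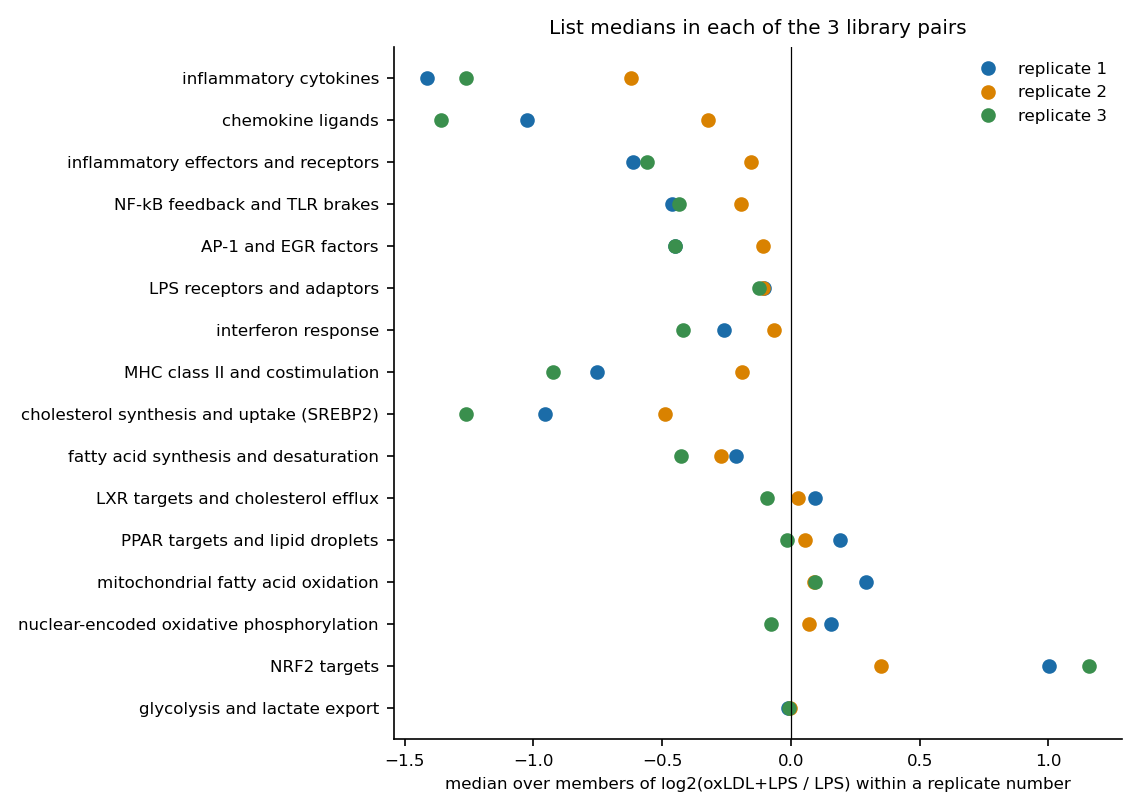
Median log2 fold change (oxLDL+LPS over LPS) of each gene list in each of the 3 pairs. Pair 2 lay nearest 0 for cytokines (-0.62), chemokines (-0.32), cholesterol genes (-0.49) and NRF2 targets (0.35), with the same sign as pairs 1 and 3.

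Lipid uptake, storage and oxidation genes changed in a few members. Cd36 (chr5:17781690-17888801), the scavenger receptor that takes up oxLDL, rose from 26396, 28348 and 27635 to 59206, 41849 and 64548, a 1.98-fold change with no overlap (log2 0.98, SE 0.15, adjusted p = 0.0099). Plin2, a coat protein of lipid droplets, rose by 0.46, also with no overlap. Among scavenger receptor genes, Marco rose by 0.24, whereas Msr1 fell by 0.36 and Olr1, another oxLDL receptor, fell by 0.58. Pparg, the regulator of Cd36, was not called at counts of 81 to 123 in the 6 libraries, against 1230 to 1284 in the control libraries.

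Cpt1a (chr19:3322334-3385733), which admits fatty acids to mitochondria, went from 2560, 1683 and 2542 to 4631, 2705 and 4483 with no overlap (log2 0.79, SE 0.07, adjusted p = 0.00349). Its log2 fold changes in pairs 1, 2 and 3 were 0.85, 0.68 and 0.82. Of 26 fatty acid oxidation genes, 5 were higher and none lower (median 0.17), the others being Slc25a20, Acaa2, Etfdh and Ech1. In the lysosome list, Lipa and Tfeb were the 2 of 35 higher (5.71%), near the 4.41% of all genes that were called higher. Lipa, the acid lipase that frees cholesterol from its esters, went from 16595, 16244 and 17048 to 31830, 20095 and 29239 (log2 0.67, SE 0.13, adjusted p = 0.0201).

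The study asked how oxLDL affects AKT, ATP citrate lyase and early glycolysis, which it followed as proteins and metabolites. At the level of RNA, Akt1 was not called (log2 0.06, SE 0.08), and Acly went from 4310, 4488 and 5130 to 3827, 4058 and 3755 with no overlap but did not pass (log2 -0.26, SE 0.08, adjusted p = 0.102). Of 29 genes for AKT signalling, acetyl-CoA supply and histone acetylation, 17.2% were called, near the 13.2% of all genes. Of these, 2 were higher, Acss2 and Kat2a, and 3 lower, Rictor and Crebbp among them. Crebbp, an acetyltransferase of histone H3, went from 1149, 1186 and 1109 to 771, 935 and 863 with no overlap (log2 -0.43, SE 0.08, adjusted p = 0.0166).

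Glycolysis genes had a median of -0.05, with 3 of 20 lower (Hk2, Pfkfb3 and Aldoc) and 2 higher (Gpi1 and Pkm). Hk2, the inducible hexokinase, fell by 0.60 and Pfkfb3 fell by 0.54, and neither Slc2a1 (log2 -0.08) nor Ldha (log2 -0.09) was called. Hif1a, a transcription factor of glycolysis genes, went from 9099, 7885 and 9081 to 5868, 6207 and 6157 with no overlap (log2 -0.51, SE 0.09, adjusted p = 0.0127). Of 74 nuclear genes of oxidative phosphorylation none was called, with a median of 0.04. None of 11 mitochondrially encoded ones was called either, and their median of -0.32 came with pair medians of -0.63, -0.10 and -0.06. Without replicate 2, 5 of the 11 were called lower, and 1 was with all 12 libraries in the fit. Among genes of the ATF4 and unfolded protein responses, 2 of 32 were higher and 2 lower (median -0.02). That is 12.5% called, near the 13.2% of all genes. Of ribosome biogenesis genes, 1 of 32 was higher (3.12% called). In the cell cycle list the 1 call among 33 was Mki67, the proliferation marker, which fell by 1.06.

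Genes of matrix remodelling and coagulation changed more often, with 9 of 23 lower and 2 higher. Mmp13, a collagenase, went from 4627, 2807 and 6431 to 2357, 1875 and 1947 with no overlap (log2 -1.09, SE 0.17, adjusted p = 0.00978). F3, tissue factor, fell by 0.93 on the log2 scale. The anticoagulant receptor thrombomodulin moved the other way: Thbd rose from 87, 51 and 24 to 159, 98 and 44 (log2 0.88, SE 0.16, adjusted p = 0.0173), by 0.86, 0.93 and 0.85 in the 3 pairs. The metallothionein genes Mt1 and Mt2 fell by 0.54 and 1.19, while Slc30a1, which exports zinc, rose by 0.60.

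Outside these lists, the genes with the smallest p among those higher included A530064D06Rik, from 229, 36 and 147 to 1417, 103 and 1028 (log2 2.30, SE 0.21, adjusted p = 0.00349). Ly6c2, a monocyte surface antigen, rose by 0.99, with 0.95, 1.02 and 1.00 in the pairs although its level ranged from 32 to 296 among LPS libraries. The inhibitory receptor genes Cd200r1 and Cd300a rose by 0.98 and 0.82 on the log2 scale. Blvrb, a biliverdin reductase and NRF2 target, rose by 0.93, and Pla2g7, which degrades platelet-activating factor and oxidized phospholipids, rose by 1.00. Among called genes whose groups did not overlap, the largest rise was in Gm20658, from 47, 31 and 32 to 283, 66 and 411. It was followed by Comp, Prkar2b, Gm17494, Srxn1 and the channel gene Panx1, which rose by 1.65. Gm20658 is annotated as antisense, and Gm17494 (chr3:122255958-122293720, - strand) overlaps the oppositely oriented Gclm, so without a stated strand setting their reads cannot be told apart from those of the partner gene.

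Among genes that fell, Kdm6b, the demethylase of H3K27, gave a change close to equal in all pairs, at -0.82, -0.71 and -0.82, from 785, 1473 and 1103 to 445, 903 and 626 (SE 0.07, adjusted p = 0.00349). Stat5a fell by 0.70 and the unnamed locus Gm6377 fell by 1.71. The largest non-overlapping fall was in Lipg, the endothelial lipase, from 1337, 474 and 1334 to 90, 247 and 90 (log2 -2.90, SE 0.46, adjusted p = 0.0103). Edn1, which encodes the vasoconstrictor endothelin-1, went from 3393, 5528 and 7064 to 396, 2764 and 1099 (log2 -2.26, SE 0.30, adjusted p = 0.00653), and the repressor gene Gfi1 fell by 2.25. Il1bos, chosen after its values were seen as the deepest fall in the plot of change against level, lies antisense to Il1b, and as the strand setting of the counting is not stated its reads and those of Il1b cannot be told apart.

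Whether the oxLDL effect depended on LPS was tested over all 12 libraries as the difference of the 2 effects. The control and oxLDL libraries share no library with the LPS comparison. By the Xist counts above, replicate 1 did not hold the same cells with and without LPS. LPS and the source of the cells therefore cannot be told apart in this test, or where levels in LPS and control are compared. Of 13465 genes, 140 (1.04%) differed at an adjusted p under 0.1 in limma, 51 with a higher and 89 with a lower effect under LPS. This count was 0 with no replicate block, 0 with a block across the 4 groups and 0 with no filter on low values. Without LPS, Ptgs2 read 50, 60 and 69 in control and 55, 74 and 58 in oxLDL (log2 0.06), and the difference of effects was -1.95 (SE 0.25, adjusted p = 0.0376). Arl11 (chr14:61309753-61311936), a small GTPase-like gene, stood at 2852 to 3339 in control and 2901 to 3287 in oxLDL, and at 424, 542 and 307 in LPS and 935, 867 and 620 in oxLDL+LPS. Its rise with LPS of 0.94 (SE 0.10) stood against a log2 effect of -0.03 without LPS, a difference of 0.97 (SE 0.12, adjusted p = 0.0376). Arrb1, β-arrestin 1, and Thbd were also lower in LPS than in control and less so in oxLDL+LPS, with differences of effects of 1.10 and 0.91.

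Several cytokine genes were close to 0 without LPS, such as Il6 at 0 to 2 in control, a level from which a fall cannot show. The cytokine list had a median of -0.10 without LPS and -1.06 with it, and 3 of its members differed, against 1.04% of all genes tested. Of the chemokines 6 differed, Ccl3 among them (difference -1.54, adjusted p = 0.0497), and of the feedback genes 7, with Tnfaip3 at -0.94 (adjusted p = 0.0465). No cholesterol gene was called in this test, which says little about a list of this size when 1.04% of all genes were called. The median of the cholesterol genes was -0.73 without LPS and -0.93 with it. Sqle, for example, went from 1653, 1315 and 1517 in control to 806, 745 and 541 in oxLDL, and the difference of effects was 0.11 (adjusted p = 0.839). No NRF2 target was called either, with the same limit. Their median was 0.49 without LPS and 0.89 with it, and the spread between pairs was wide: the difference for Srxn1 was 0.87 (adjusted p = 0.366) and for Hmox1 0.96 (adjusted p = 0.273). Cd36 rose in both states, by 0.93 without LPS and 0.98 with it. The difference test called no gene without replicate 1 or without replicate 3 and 713 genes without replicate 2.

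**Figure D5:**
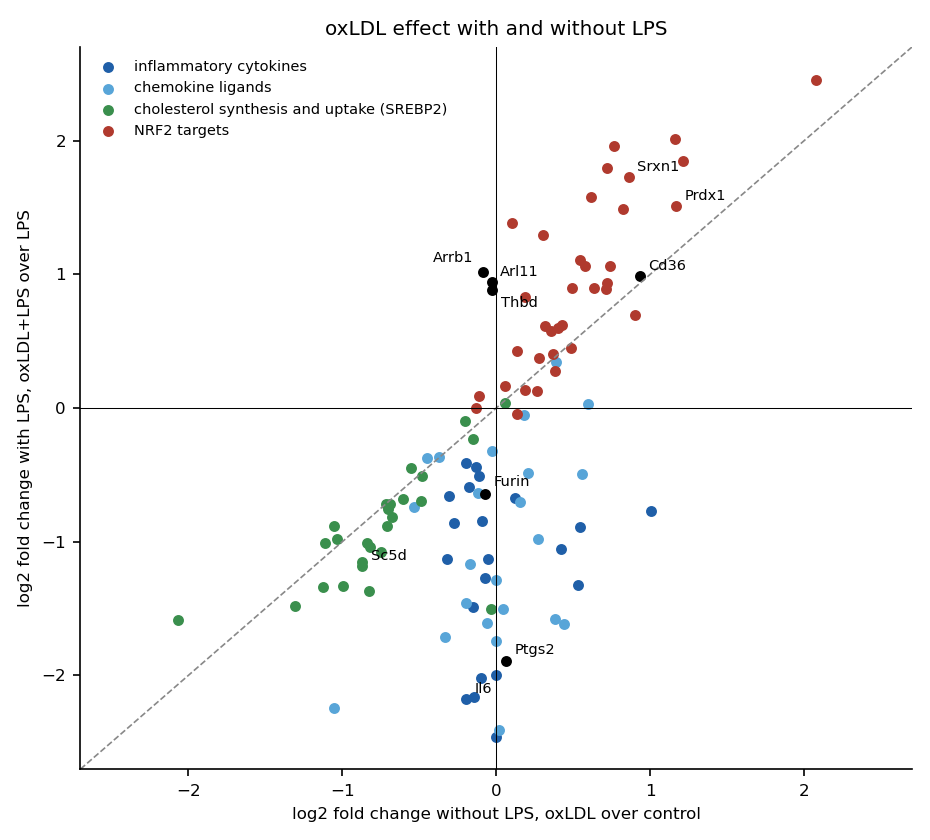
Log2 effect of oxLDL without LPS (horizontal axis) against its effect with LPS (vertical axis) for members of 4 gene lists and 6 other named genes, with the line of equal effects dashed. Cholesterol genes had medians of -0.73 without LPS and -0.93 with it. Cytokine genes lie below the line, with medians of -0.10 without LPS and -1.06 with it.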

How the data were processed

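Poly(A) RNA libraries of PMφs were sequenced by the authors. Per the labels and the study's methods, reads were trimmed (Trimmomatic 0.32), aligned to the mouse genome (mm10, GRCm38; STAR 2.5.1b) and counted per gene (featureCounts). The strand setting of the counting is not given in the sources used here. The deposited signal values are whole-number counts multiplied by 1 factor per library and rounded, called normalized counts here. The factor was estimated here from the spacing of low values. Estimates were 0.924 to 1.41 in the LPS libraries and 1.083 to 1.145 in the oxLDL+LPS libraries. They put about 18.7 to 26.2 M and 20.3 to 20.7 M reads behind these libraries. Because scaled values are not reads, no count model was fitted. Of 43278 rows, 25 whose symbols had become dates (at most 0.162% of a library) were left out.

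Groups were taken from the labels. Values were analysed as log2(normalized count + 1) with limma 3.58.1 in R 4.3.3 (lmFit, eBayes with trend), with replicate number as a block, and p-values were adjusted by the Benjamini-Hochberg method over all genes tested. Fold changes are on the log2(value + 1) scale and understate changes of low genes. Pairing by replicate number was set beforehand and was checked with deviations from group means. These correlated at 0.657, 0.63 and 0.639 (Pearson, 12769 genes) for libraries of the same number. The values for other numbers, -0.366 to -0.275, add little, since deviations cancel within a group and so must correlate negatively on average there. The numbers pair libraries within an LPS state only, as Xist read 1 and 2 in replicate 1 without LPS and 6331 and 3812 with LPS. The test of the difference between LPS states used all 12 libraries and replicate number within LPS state. The fitting was tested on simulated data. Exact permutation of 3 against 3 libraries without regard to the pairs cannot give a p below 0.1. Swaps within the 3 pairs allow fewer arrangements still, so their smallest p is higher. Neither was used.

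The members, the 29 pathway lists and the 12 marker lists were chosen with earlier results of these data known. Named genes are the study's targets, the 12 higher and 12 lower called genes of smallest p that moved alike in the pairs, up to 8 called members per list and direction, the 6 per direction of smallest p in the difference test and the 6 per direction of largest fold without overlap. Some members of the lists are not reported here. Further names, such as Gclm, Hmox1, Nqo1, Sqstm1, Fdps, Hmgcs1, Tnfaip3, Nfkbia and Cxcl10, fall outside these rules and were chosen with their values known. Il1bos, Il1f9 and Treml4 are marked in the text as chosen after their values were seen. Promoters are from RefSeq (GRCm38.p6) and were matched by symbol for 9327 of 12769 tested genes. Alternatives were no block, other pseudocounts, filters and scalings, all 12 libraries, robust variance and each pair left out.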

Additional observations from a re-analysis of the deposited data

Results flagged for a closer look

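The effect of oxLDL differed between LPS-treated and untreated PMφs for 140 genes, tested as the difference of effects in limma, with 51 higher and 89 lower under LPS. No gene differed with no replicate block, with a block across the 4 groups, with no filter or without replicate 1 or 3. The genes of smallest p on each side are given here with that difference, on the log2 scale. Among genes higher under LPS were Arl11 (0.97), Nbeal2, a protein of granule formation (0.94, with effects of 0.63 with LPS and -0.32 without), Thbd (0.91), Il6ra, the interleukin-6 receptor (0.78), 5430435G22Rik (1.34) and Arrb1 (1.10). Among genes lower under LPS were Ptgs2 (-1.95), Ccrn4l, which encodes nocturnin (-0.81), the kinase gene Pim1 (-0.58), the endocytic adaptor gene Dab2 (-0.77, with effects of -0.76 with LPS and 0.01 without), Spred1, an inhibitor of MAP kinase signalling (-0.69), and the protease gene Furin (-0.57). Adjusted p ranged from 0.0376 to 0.0497 over these 12 genes. Spred1 and Nbeal2 had effects of opposite sign in the 2 states, with Spred1 at 0.39 without LPS and -0.30 with it. LPS and the source of the cells cannot be told apart in this test.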

How the results depend on the processing

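The number of genes called (1680) was 0 with no replicate block, 0 with no filter on low values (22573 genes), 963 with quantile normalization, 2911 with all 12 libraries in the fit, and between 0 and 2749 when 1 pair was left out. Every called gene that a fit held kept its direction in it, which adds little. With no block, the robust fit or all 12 libraries the fold change is the same by design. Fits with 1 pair left out share their pairs with the main fit. The count over all genes stayed within 1.5 times under both other pseudocounts, the stricter filter, TMM rescaling and the robust fit. Single lists moved by more: the robust fit took cytokines from 18 to 11 and chemokines from 17 to 8, and quantile normalization took chemokines to 11, effectors from 14 to 9 and feedback genes from 20 to 12. NRF2 targets went from 26 to 18 in the robust fit, within 1.5 times. With quantile normalization 898 of the calls were shared, and with all 12 libraries 1608. The number of genes whose oxLDL effect differed between LPS states (140) was 0 with no replicate block, 0 with a replicate block across the 4 groups, 0 with no filter, and between 0 and 713 when a pair was left out. The share of variance between groups was 19.5% over all genes against 17.1%. Named calls thus rest on 3 pairs, on the pairing and on the low-value filter, and the cause was not tested. Low genes such as Nqo1, Comp and Gm17494 carry wide errors at this depth.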

Other observations

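Among genes outside the lists, chosen after their values were seen, 2 immune genes rose while most cytokine genes fell. Il1f9, which encodes interleukin-36γ, a cytokine of the interleukin-1 family, read 33, 20 and 25 in LPS and 259, 29 and 332 in oxLDL+LPS (log2 2.38, SE 0.47, adjusted p = 0.0219 in limma), with overlap only through replicate 2. Without LPS its effect was 1.39, and the difference between the LPS states did not pass (adjusted p = 0.628). Treml4, a receptor of the TREM family, read 15, 9 and 6 in LPS and 114, 11 and 132 in oxLDL+LPS (log2 2.45, SE 0.60, adjusted p = 0.0443), with a log2 change of 0.26 in pair 2.

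Hprt, the gene to which the study scaled its real-time PCR, read 1227, 897 and 1143 in LPS and 1543, 1006 and 1520 in oxLDL+LPS (log2 0.30, SE 0.08, adjusted p = 0.0505 in limma). S100a8, a neutrophil and monocyte gene, rose by 0.53 on the log2 scale from 74, 97 and 178, and 4 of the 10 neutrophil markers were at 0 in all 6 libraries.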
